A study of Homo sapiens with 22 samples.

Results

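The red cell membrane and receptor genes described here are ANK1, SPTB, EPB41, EPB42, SLC4A1, RHAG, KEL, GYPC and EPOR. A region belonged to a gene when it overlapped the gene's RefSeq span (GRCh38.p14) extended by 30 kb on each side, a stretch called the gene window below. The 9 windows held 379 of the 409446 regions counted in the series, made up of 101 of 95436 H3K27ac regions, 121 of 138731 Jun regions, 63 of 66168 CTCF regions and 94 of 109111 Rad21 regions. EPB41 held the most regions of the 4 antibodies together, 94, and RHAG the fewest, 19, and the lengths of the spans ran from 7.1 kb for EPOR to 243.5 kb for ANK1.

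The mature red cell keeps its shape through a lattice of spectrin tetramers beneath the lipid bilayer. SPTB encodes the erythroid beta spectrin of that lattice, EPB41 encodes protein 4.1R, which joins spectrin to actin and to glycophorin C, and ANK1 encodes ankyrin-1, which ties beta spectrin to the anion exchanger. EPB42 encodes protein 4.2, which strengthens that tie. SLC4A1 encodes the anion exchanger itself (band 3), RHAG the glycoprotein partner of the Rh proteins, GYPC glycophorins C and D, and KEL the Kell blood group endopeptidase. EPOR encodes the erythropoietin receptor, through which red cell precursors receive the signal to survive and mature.

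The cells were K562, a human leukemia line of erythroid character, of wild-type genotype per the labels. All groups were the same line grown alike. The groups differed in the time spent with 25 nM PMA (phorbol ester), an agent that pushes these cells toward a megakaryocyte-like state: 0 h, 6 h or 72 h. No vehicle-only group at 6 or 72 h entered the comparisons, so time in culture and time with PMA cannot be told apart. CUT&RUN (CNR in the sample titles), in which an antibody directs a nuclease to cut out the DNA it sits on, was run for H3K27ac (an acetylated lysine of histone H3 that marks active promoters and enhancers), Jun (a part of AP-1, a transcription factor), CTCF (an insulator protein) and Rad21 (part of cohesin, a ring around DNA). There were 22 libraries in 11 groups of 2, and Rad21 was taken at 0 and 72 h only. The labels do not say that the 2 libraries of a group came from separate cultures, so the p-values measure the spread between libraries, which may be technical.

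Promoter sequences were in the RefSeq table for 7 of the 9 genes, all but ANK1 and SLC4A1. In the 250 bases before a start site, all 7 carried a match to the GATA motif (GATA preceded by A or T and followed by A or G, on either strand), in EPB41 and SPTB at 1 of the 2 starts listed, while 22.3% of 35116 promoters did. GATA factors are the core regulators of red cell genes. CACCC on either strand was present in 5 of 7 (54.7% of all promoters), CANNTG in 4 of 7 (61.8%) and the AP-1 motif TGANTCA in 0 of 7 (6.57%). A match describes letters in this window and not a bound site. The promoters below are shown because the first 4 belong to the genes whose start-site H3K27ac fell furthest, and the fifth lies in a Jun and a Rad21 region. Each is written 5′ to 3′ on the gene's strand, up to the base before the start, with GATA matches in capitals.
KEL: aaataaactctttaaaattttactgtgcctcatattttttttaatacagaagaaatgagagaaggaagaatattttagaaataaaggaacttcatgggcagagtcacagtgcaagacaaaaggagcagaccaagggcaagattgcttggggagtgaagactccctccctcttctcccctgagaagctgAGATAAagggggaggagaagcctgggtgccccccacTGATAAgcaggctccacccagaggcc
EPB42: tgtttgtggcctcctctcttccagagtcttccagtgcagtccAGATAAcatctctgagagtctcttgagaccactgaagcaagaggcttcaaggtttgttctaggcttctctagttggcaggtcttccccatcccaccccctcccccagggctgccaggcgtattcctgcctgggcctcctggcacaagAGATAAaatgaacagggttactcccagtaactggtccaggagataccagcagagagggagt
SPTB: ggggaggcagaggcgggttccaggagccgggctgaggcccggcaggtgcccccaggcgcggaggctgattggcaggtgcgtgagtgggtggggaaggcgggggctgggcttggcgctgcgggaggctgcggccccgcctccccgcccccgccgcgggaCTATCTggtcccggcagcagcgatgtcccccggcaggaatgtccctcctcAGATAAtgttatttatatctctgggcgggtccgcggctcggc
EPOR: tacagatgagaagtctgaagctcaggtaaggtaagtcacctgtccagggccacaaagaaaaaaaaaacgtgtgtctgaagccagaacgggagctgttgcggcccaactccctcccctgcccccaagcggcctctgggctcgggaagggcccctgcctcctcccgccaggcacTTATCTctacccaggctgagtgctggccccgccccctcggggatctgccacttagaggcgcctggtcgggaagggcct
RHAG: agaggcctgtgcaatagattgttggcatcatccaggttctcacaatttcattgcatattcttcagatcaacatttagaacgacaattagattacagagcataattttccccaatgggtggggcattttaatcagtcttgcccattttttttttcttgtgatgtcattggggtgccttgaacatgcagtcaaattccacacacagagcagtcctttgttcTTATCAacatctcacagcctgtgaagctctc
The KEL sequence (chr7:142962364-142962613, minus strand) has matches starting 62 and 26 bases before the start, and both lie inside an H3K27ac, a Jun and a Rad21 region. The EPB42 sequence (chr15:43221019-43221268, minus strand) has matches at 208 and 61 bases, the farther inside an H3K27ac and a Jun region and the nearer inside a Rad21 region. SPTB (chr14:64879908-64880157, minus strand) has matches at 92 and 42 bases, with 1 inside an H3K27ac region and none inside a Jun region. EPOR (chr19:11384315-11384564, minus strand) has a match at 78 bases, inside an H3K27ac and a CTCF region. RHAG (chr6:49636840-49637089, minus strand) has a match at 31 bases, inside a Jun and a Rad21 region and not wholly inside the H3K27ac region.

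Reads counted in regions ranged from 12634261 to 27266241 per H3K27ac library, 4766421 to 18883962 for Jun, 2553677 to 6068421 for CTCF and 4398797 to 7285286 for Rad21. The share of Jun reads on the mitochondrial chromosome was 24.1% and 27.7% at 0 h, 21.3% and 18.1% after 6 h and 9.07% and 8.58% after 72 h, whereas in H3K27ac libraries it was at most 1.47%. With mitochondrial regions removed, Jun calls in the 9 windows at 72 h were 17 higher and 54 lower, against 16 and 54 with them. Erythroid and megakaryocyte marker genes were followed for the identity of the line: of 7 erythroid windows (such as KLF1) 0 rose and 6 fell in H3K27ac at 72 h, and of 7 megakaryocyte windows 4 rose (VWF, SELP and ITGB3 most) and 2 fell (ITGA2B and GP1BA), where 35.4% of all tested windows rose and 52.5% fell. Of the markers of other cell types, a start was listed for 2 of 3 of T cells, 1 of 3 of B cells and 2 of 3 of monocytes. It was listed for 0 of 4 of fibroblasts or epithelium, and markers without a listed start could not be checked. Among those checked, CD3D had an H3K27ac peak within 1 kb of its start in both libraries at every time. CSF1R did at 72 h only, the time with the longest H3K27ac peak lists. In these bulk libraries, fewer cells carrying a mark and less of the mark per cell cannot be told apart.

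H3K27ac over all 9 gene windows was lower at 6 h and at 72 h than at 0 h. The falls were deepest at KEL, SPTB, GYPC and RHAG and shallowest at EPB41, ANK1 and EPOR at 6 h and at EPB42, EPB41 and ANK1 at 72 h. Levels are given as CPM, the counts divided by the library's total in regions scaled by its TMM factor and set to a common depth, and a call is an adjusted p below 0.05 in edgeR's quasi-likelihood test with Benjamini-Hochberg adjustment over all tested windows or regions. All 9 windows were called lower at both times. At 6 h 7 were called lower by total counts, 7 with loess offsets, which also called EPB41 higher, and 8 in DESeq2, and at 72 h 8 were with loess offsets and in DESeq2. Among all 43244 windows tested, 46.9% were called lower at 6 h and 52.5% at 72 h. The median log2 fold change of the 9 windows was −1.23 at 6 h and −1.04 at 72 h, beside −0.18 and −0.30 over all windows. Scaling moved these values: by total counts the member medians were −0.89 and −0.80 beside 0.15 and −0.06 over all windows, and with loess offsets they were −0.87 and −0.57 beside −0.01 and −0.04.

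**Figure D1:**
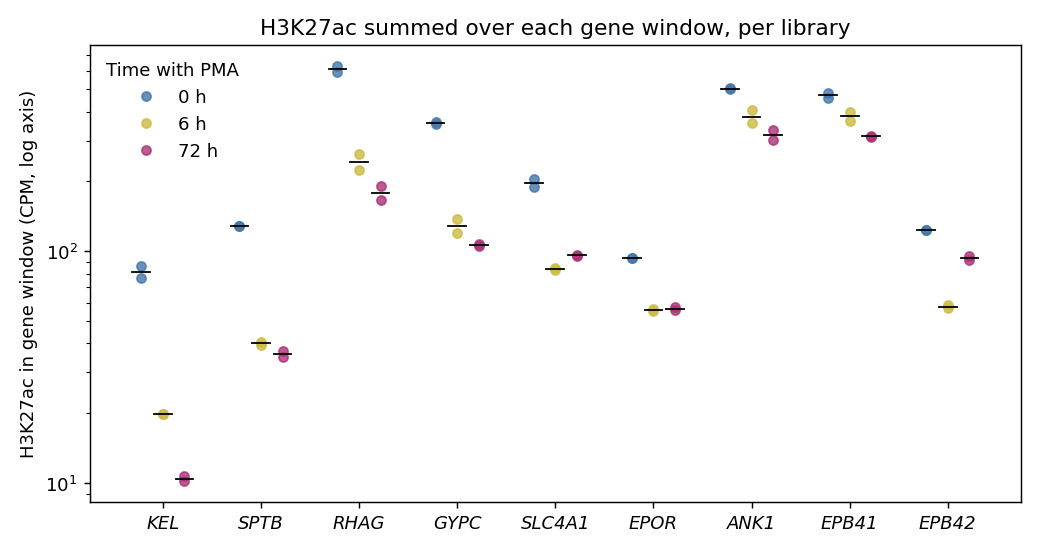
H3K27ac summed over each gene window in CPM (log axis), with a point for each of the 2 libraries at 0, 6 and 72 h with PMA and a black bar at their mean. At each of the 9 genes both 6 h and both 72 h points lie below both 0 h points. EPB42 and SLC4A1 have both 6 h points below both 72 h points.

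In the spectrin skeleton, SPTB showed the strongest loss. Its window held 128 and 128 CPM at 0 h, 40.5 and 39.6 after 6 h and 34.8 and 36.9 after 72 h. On the log2 scale SPTB changed by −1.68 (SE 0.0725, adjusted p = 8.26e-16) after 6 h and by −1.84 (SE 0.0704, adjusted p = 1.3e-17) after 72 h. Nearly all of the window's fall was thus present by 6 h. The change from 6 to 72 h did not pass the test (adjusted p = 0.0662). By total counts it was −0.26 (adjusted p = 0.00346), and with 100 kb 0.21 (adjusted p = 0.00667). Over the SPTB span without the 30 kb extension it was −0.67 (adjusted p = 1.04e-06), so H3K27ac there went on falling after 6 h. ANK1, the ankyrin gene, held 502 and 504 CPM at 0 h, 356 and 405 after 6 h and 303 and 333 after 72 h, which is −0.40 (SE 0.0912) and −0.66 (SE 0.0912) on the log2 scale. EPB41, the protein 4.1 gene, held 456 and 483 CPM, then 365 and 397, then 312 and 313, or −0.30 (SE 0.087) and −0.59 (SE 0.087). The libraries of each time are apart from those of 0 h in both genes, but the 6 h values depend on scaling. For EPB41 the 6 h change was 0.03 by total counts and 0.18 with loess offsets, and its call was lost without the second 0 h library (−0.26, adjusted p = 0.0891). For ANK1 it was −0.07 by total counts, not called, and 0.08 with loess offsets.

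EPB42, the protein 4.2 gene, dipped and partly returned. Its window held 124 and 123 CPM at 0 h, 58.7 and 56.7 after 6 h and 95.2 and 92.0 after 72 h. The 6 h libraries were the lowest and the 72 h libraries lay between, with log2 fold changes of −1.10 (SE 0.0687) at 6 h, −0.40 (SE 0.0647) at 72 h and 0.70 (adjusted p = 2.49e-09) from 6 to 72 h. The 72 h change was 0.07 with loess offsets. Over the EPB42 span without the 30 kb extension the change from 6 to 72 h was −1.86 (adjusted p = 7.86e-08). Regions in the span of the neighbouring gene TGM5, a transglutaminase gene, rose while the EPB42 promoter fell. The promoter region at chr15:43221150-43222867 held 785 and 731 counts at 0 h, 86 and 121 after 6 h and 47 and 35 after 72 h. That is a log2 fold change of −2.79, then of −4.80 (SE 0.167, adjusted p = 1.26e-18), and no library at 72 h had a peak there. By contrast the TGM5 region at chr15:43238278-43240534 held 160 and 182 counts at 0 h, 87 and 153 after 6 h and 738 and 744 after 72 h (1.52, SE 0.134, from 0 to 72 h). A second TGM5 region, chr15:43251464-43252391, held 25 and 57 counts at 0 h and 310 and 312 after 72 h, a log2 fold change of 2.34 (2.98 without the second 0 h library).

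Inside the larger skeleton genes, regions also moved in opposite directions. At SPTB the start-site region chr14:64878972-64879920 held 277 and 318 counts at 0 h, 94 and 109 after 6 h and 38 and 41 after 72 h, a log2 fold change of −3.50 at 72 h. The strongest region of the window, chr14:64841320-64842812 inside the gene, went from 959 and 1071 counts to 182 and 250 and then 134 and 123 (−2.15 and −3.57). Next to it, chr14:64840790-64841125 held 200 and 193, then 17 and 27, then 11 and 14 counts (−3.08 and −4.55). All 3 were lowest at 72 h. At the far end of the window, in the span of the neighbour PLEKHG3, chr14:64719981-64720929 held 2 and 3 counts at 0 h, 25 and 50 after 6 h and 247 and 258 after 72 h, the largest rise among the H3K27ac regions of the 9 windows that were tested (6.01, SE 0.371, adjusted p = 1.06e-13).

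In ANK1, 10 regions were called lower and 9 higher at 72 h of 21 tested, where 38.1% of all tested regions were lower and 43.4% higher. A pair of neighbouring regions held the largest called falls at 6 h and at 72 h: chr8:41822302-41824049 went from 1930 and 2120 counts to 462 and 696 and then 820 and 829 (−1.73 and −1.89), and chr8:41821352-41821606 from 254 and 258 to 52 and 105 and then 46 and 36 (−1.64 and −3.23). The region with the highest mean level, chr8:41795647-41797620, held 2146 and 2256 counts, then 947 and 1785, then 1647 and 1863, or 122 and 119, 66.2 and 87.8, and 59.6 and 67.8 CPM. Its log2 fold change was −0.64 at 6 h (−0.06 with loess offsets, not called) and −0.92 at 72 h (−0.21 with loess offsets). Inside the gene chr8:41717301-41718772 gained the mark, from 29 and 19 counts to 228 and 364 and then 293 and 313 (3.69, SE 0.214, at 6 h and 3.06, SE 0.217, at 72 h).

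EPB41 had 18 of 25 regions called lower and 3 higher at 72 h, against 38.1% lower and 43.4% higher among all regions. The region at 1 of its 2 listed starts, chr1:28886443-28887307, held 40.3 and 45.1 CPM at 0 h, 20.8 and 23.7 after 6 h and 18.3 and 17.2 after 72 h (−0.94 and −1.27). Levels there were lower in each later library than in either 0 h library. The strongest region, chr1:28926116-28929133, stayed near its starting level at 72 h, with 127 and 131 CPM at 0 h and 117 and 124 after 72 h (−0.10, adjusted p = 0.41). That value was 0.13 by total counts and 0.67 with loess offsets. Within the gene chr1:28971641-28973606 rose from 15.7 and 14.2 CPM to 58.9 and 57.7 at 6 h and held 31.8 and 29.7 at 72 h (1.96, SE 0.114, and 1.04, SE 0.114). At the upstream neighbour OPRD1, chr1:28859916-28860893 held 1.76 and 2.42 CPM at 0 h, 6.99 and 5.76 after 6 h and 5.10 and 5.50 after 72 h (1.59 and 1.33).

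Among the membrane proteins, KEL lost the most. Its window held 86.1 and 76.6 CPM at 0 h, 19.9 and 19.9 after 6 h and 10.2 and 10.7 after 72 h. The log2 fold change was −2.03 (SE 0.092) after 6 h and −2.96 (SE 0.0943, adjusted p = 3.32e-19) after 72 h, with a further fall from 6 to 72 h (−0.93, adjusted p = 3.18e-08). With the window widened to 100 kb, which takes in more regions of neighbouring genes, the 72 h value was 0.54. Only 2 H3K27ac regions lay in the 30 kb window. The one over the start site, chr7:142961547-142963520, held 1341 and 1284 counts at 0 h, 217 and 313 after 6 h and 148 and 177 after 72 h (−2.23, SE 0.119, and −3.61, SE 0.127). The other, chr7:142956745-142957477 inside the gene, fell by about the same amount at both times, from 9.88 and 9.01 CPM to 4.69 and 4.48 and then 4.85 and 4.22 (−1.04 and −1.06).

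GYPC held 354 and 362 CPM at 0 h, 120 and 138 after 6 h and 105 and 107 after 72 h. Its log2 fold change was −1.48 (SE 0.078) and −1.75 (SE 0.0778, adjusted p = 2.4e-16). The start-site region chr2:126656228-126659318 carried the most signal, with 131 and 137 CPM, then 74.6 and 88.1, then 77.7 and 79.3 (−0.72 and −0.77). Its fall was the smallest of those called in the window at 6 h. With loess offsets neither of its 2 calls remained (−0.11 and −0.04). At 72 h 2 of the 9 tested regions of the window were called higher. An upstream region, chr2:126637353-126637820, held 98 and 115 counts at 0 h, 10 and 20 after 6 h and 7 and 4 after 72 h, the largest fall of the tested H3K27ac regions of the 9 windows (−4.82, SE 0.396, at 72 h).

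RHAG held 628 and 595 CPM at 0 h, 224 and 263 after 6 h and 167 and 191 after 72 h. The log2 fold change was −1.33 (SE 0.0959) and −1.77 (SE 0.0967, adjusted p = 1.45e-14). All 7 of its H3K27ac regions were called lower at 72 h, against 38.1% of all regions. The strongest, chr6:49645475-49648459, lies upstream of the gene and went from 298 and 300 CPM to 64.8 and 76.0 and then 48.6 and 50.7 (−2.08 and −2.59). It lost more than the start-site region chr6:49635037-49636865, which held 191 and 161 CPM, then 79.5 and 102, then 76.2 and 94.8 (−0.95 and −1.04, and −0.31 and −0.28 with loess offsets). The difference between the regions was not tested. Further upstream chr6:49662143-49663697 held 793 and 867 counts, then 221 and 336, then 55 and 59 (−1.50 and −4.45). A weak region near the far end of the gene, chr6:49607402-49607898, was higher at 6 h (44 and 27 counts at 0 h, 70 and 87 at 6 h; 1.23, adjusted p = 0.00185) and lower at 72 h (12 and 12 counts; −2.15).

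SLC4A1 held 189 and 204 CPM at 0 h, 83.0 and 84.9 after 6 h and 96.0 and 95.6 after 72 h. The log2 fold change was −1.23 (SE 0.0679) at 6 h and −1.04 (SE 0.0658) at 72 h. The 72 h libraries were above the 6 h libraries, by 0.19 (adjusted p = 0.0156), but by total counts this was 0.0887 (adjusted p = 0.155) and with 100 kb −0.20. The call was also lost without the first (0.186) or the second (0.189) 72 h library. Its strongest region, chr17:44287781-44290227, lies outside any RefSeq gene span and showed the same order, with 83.0 and 93.4 CPM, then 21.5 and 20.5, then 27.1 and 26.4 (−2.07 and −1.72). A nearby weaker region, chr17:44281860-44282460, held 78 and 88 counts, then 31 and 26, then 13 and 13 (−3.25 at 72 h). On the other side of the gene chr17:44235137-44235771 rose from 7 and 14 counts to 34 and 32 and then 65 and 59 (1.75 and 1.96).

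EPOR, the receptor gene, held 93.9 and 93.1 CPM at 0 h, 56.4 and 55.0 after 6 h and 55.5 and 57.6 after 72 h. The log2 fold change was −0.75 (SE 0.0704) and −0.73 (SE 0.068), and the 2 later times did not differ by the test (0.02, adjusted p = 0.773). The start-site region chr19:11382936-11384649 fell further than its window, from 36.1 and 39.1 CPM to 11.9 and 13.1 and then 8.47 and 8.41 (−1.58, SE 0.123, and −2.15, SE 0.123). Of the other 6 regions, all tested, 2 were called lower, 1 higher and 3 neither at 72 h (38.1% lower and 43.4% higher among all regions).

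**Figure D2:**
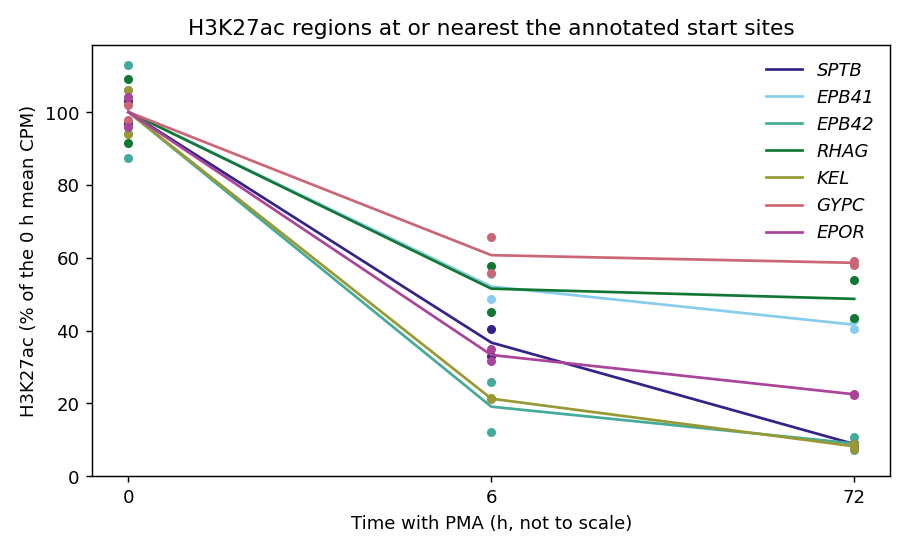
H3K27ac at the region over or nearest the annotated start site of 7 genes, as a percentage of that region's mean CPM at 0 h, with points for the libraries and lines through the means. For EPB41 only the region at chr1:28887100 is shown. KEL (8.21%), SPTB (8.83%) and EPB42 (8.99%) are lowest at 72 h, EPOR is at 22.5%, and EPB41 (41.6%), RHAG (48.7%) and GYPC (58.6%) keep the most.

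As a share of the 0 h mean, start-site H3K27ac at 72 h was 8.21% at KEL, 8.83% at SPTB, 8.99% at EPB42 and 22.5% at EPOR, and between 41.6% and 58.6% at EPB41, RHAG and GYPC. The EPB42 value is for a 200-base region just inside the gene, chr15:43220783-43220982, which held 80 and 67 counts at 0 h, 15 and 10 after 6 h and 12 and 8 after 72 h (−2.44, SE 0.407, and −3.45, SE 0.417). An H3K27ac peak within 1 kb of a start, called by the authors in both libraries of a time, was found for 7 of 7 genes at 0 h, for EPB41, RHAG, KEL and GYPC at 6 h, and for those and EPOR at 72 h. The peak lists differ in size, with 36947 and 39680 peaks at 6 h and 65267 and 66147 at 72 h. Start-site H3K27ac at EPOR was 33.3% of the 0 h mean at 6 h and 22.5% at 72 h.

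Counted by region, 100 of the 101 H3K27ac regions passed the filter on low counts. At 6 h 67 were called, 19 higher and 48 lower. Among all regions 58.6% were called, 32.3% higher and 26.3% lower. At 72 h 90 were called, 23 higher and 67 lower, against 81.5% of all regions, 43.4% higher and 38.1% lower. From 6 to 72 h 71 were called, 17 higher and 54 lower, against 63.8%, 33.1% and 30.8%. By total counts the 6 h split was 27 higher and 38 lower, so 41.5% of the member calls were higher, against 71.8% of all calls. The median region changed by −0.52 at 6 h and −1.22 at 72 h, while the median over all regions was 0.19 and 0.18. GYPC had 9 regions tested, of which 7 were called lower and 2 higher at 72 h, and SPTB had 7 lower and 3 higher of 10.

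**Figure D3:**
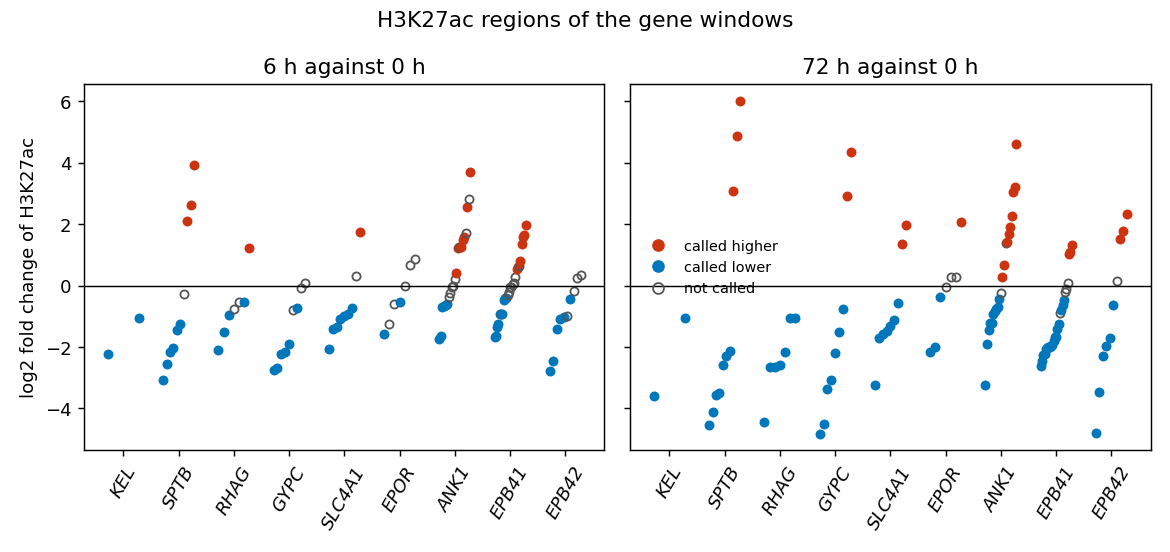
log2 fold change of each tested H3K27ac region by gene, at 6 h and at 72 h against 0 h, filled red where called higher, blue where called lower and open where not called. At 72 h 67 regions lie in the called-lower set and 23 in the called-higher set. RHAG and KEL have no region called higher at 72 h.

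Jun at the same windows was called lower at 72 h for 8 of the 9 genes, and this count depends on scaling. At 6 h 6 windows were called lower and 0 higher, against 28.3% lower and 19.7% higher among all windows, and at 72 h 8 lower and 0 higher, against 46.6% and 27.8%. By total counts, where the median of all windows is 0.31 in place of −0.26, 3 were called lower and 1 (EPB42) higher at 72 h. With loess offsets 4 were lower and 1 higher. Of all windows called at 72 h, 69.7% were higher by total counts and 47.3% with loess offsets. KEL, RHAG and SLC4A1 were the 3 called lower by total counts.

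RHAG held 104 and 117 CPM of Jun at 0 h, 40.0 and 51.6 after 6 h and 35.7 and 34.9 after 72 h (−1.26 and −1.65, adjusted p = 7.74e-13 at 72 h). SLC4A1 held 99.6 and 99.05 CPM, then 42.9 and 40.0, then 45.6 and 43.4 (−1.26 and −1.16). KEL held 83.5 and 77.6 CPM, then 29.1 and 28.0, then 39.2 and 39.3 (−1.50 and −1.04), and its rise from 6 to 72 h passed the test (0.46, adjusted p = 0.0023). In these genes every library at 6 or 72 h was below both libraries at 0 h. EPB41 changed by −0.24 at 6 h (adjusted p = 0.0631) and −0.67 at 72 h, and ANK1 by −0.00 (adjusted p = 0.982) and −0.42. By total counts the ANK1 values were 0.20 and 0.14. GYPC changed by −0.54 and −0.55 and SPTB by −0.53 and −0.33, but by total counts the 72 h values were 0.01 and 0.24. The 72 h call at SPTB was also lost without the second 0 h library (−0.23) or the first 72 h library (−0.29). EPOR changed by −0.02 at 6 h (adjusted p = 0.911), with overlapping libraries, and −0.55 at 72 h (0.00 by total counts). EPB42 was lower at 6 h (−0.61) and not called at 72 h (−0.15, adjusted p = 0.177).

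Single Jun regions changed more than their windows. At the KEL start site chr7:142962213-142962671 held 96 and 57 counts at 0 h, 8 and 10 after 6 h and 68 and 66 after 72 h. In CPM these are 13.9 and 8.14, 1.81 and 1.82, and 3.22 and 2.79, since the 72 h Jun libraries were deeper (−2.60 and −1.87). At the EPB42 start chr15:43221135-43221553 held 33 and 39 counts at 0 h, 0 and 2 after 6 h and 16 and 17 after 72 h. The scaled level at 0 h was 25.7 times that at 6 h, with a 95% counting interval of 6.87 to 216, and the 72 h change was −2.79. Jun thus fell at both of these promoters, whose GATA matches are shown above, as H3K27ac did. At RHAG the start-site region chr6:49636281-49637462 held 40.8 and 51.2 CPM, then 12.4 and 11.8, then 13.1 and 11.7 (−1.93 and −1.89), and the upstream region chr6:49645885-49647041 held 42.4 and 42.8, then 14.9 and 25.4, then 16.3 and 17.2 (−1.06 and −1.35).

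Upstream of GYPC, chr2:126644849-126645664 held 22.2 and 24.7 CPM of Jun at 0 h, 4.07 and 4.18 after 6 h and 3.69 and 3.97 after 72 h (−2.50, SE 0.257, and −2.61, SE 0.21). Beside SLC4A1, chr17:44245160-44246453 held 38.6 and 41.1 CPM, then 6.33 and 6.54, then 8.10 and 6.89 (−2.63 and −2.41). Both were already at their lower level by 6 h. In SPTB, chr14:64831876-64832327 held 46 and 46 counts, then 5 and 8, then 13 and 12 (−2.33 and −3.54, the lowest Jun change at 72 h in the 9 windows). The strongest Jun regions of ANK1 and EPB41 were less firm: chr8:41792022-41792920 changed by −1.16 at 72 h (−0.26 with loess offsets, not called) and chr1:28883678-28885401 by −1.02 (−0.46 by total counts and −0.11 with loess offsets, neither called).

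Jun was gained where H3K27ac was gained in several places. The ANK1 region chr8:41717623-41718442 held 3.92 and 3.28 CPM of Jun at 0 h, 20.1 and 18.9 after 6 h and 9.14 and 9.81 after 72 h (2.43 and 1.39), highest at 6 h as H3K27ac was in CPM. The EPB41 region chr1:28972032-28972906 followed the same order, with 18.3 and 18.0, then 47.0 and 63.1, then 28.6 and 32.8 CPM (1.60 and 0.76, the latter 0.57 and not called without the second 72 h library). Other gains were highest at 72 h. In the PLEKHG3 span of the SPTB window chr14:64723654-64724856 held 17 and 24 counts, then 29 and 40, then 417 and 403 (1.23 and 2.63). The 6 h call was lost without the first 0 h library (1.02) or the second 6 h library (1.06). Downstream of GYPC chr2:126719877-126721101 held 16 and 11, then 16 and 32, then 395 and 368 counts (1.30 and 3.13). Here the 6 h call was lost without the second 0 h library (1.05), without the second 6 h library (0.81) and in DESeq2 (1.24). In the TGM5 span chr15:43251528-43252284 changed by 0.65 at 6 h (adjusted p = 0.0729) and 1.23 at 72 h.

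All 121 Jun regions were tested. At 6 h 15 were higher and 36 lower, against 13.1% and 12.2% of all regions (25.3% either way). At 72 h 16 were higher and 54 lower, against 28.0% and 25.7% (53.7%). From 6 to 72 h 7 were higher and 19 lower, against 12.7% and 13.4% (26.2%). By total counts the splits were 18 higher and 27 lower at 6 h, 38 and 37 at 72 h, and 15 and 7 from 6 to 72 h. Higher calls were then 40.0%, 50.7% and 68.2% of the member calls, against 66.8%, 74.3% and 78.9% of all calls. The lean toward lower calls at 72 h thus depends on the scaling. The share of higher calls was below that of all regions with TMM and by total counts. The median over all regions at 72 h was 0.17 with TMM and 0.73 by total counts, and the members' median was −0.53 and 0.03.

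At 72 of the 100 tested H3K27ac regions a Jun region overlapped by at least 1 base (72.0%, against 71.5% of all H3K27ac regions). For 48 of them both marks were called at 72 h. Both were higher at 12, both lower at 34, and H3K27ac was higher with Jun lower at 2. The direction was thus shared at 95.8%, and over all regions it was 94.3%.

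**Figure D4:**
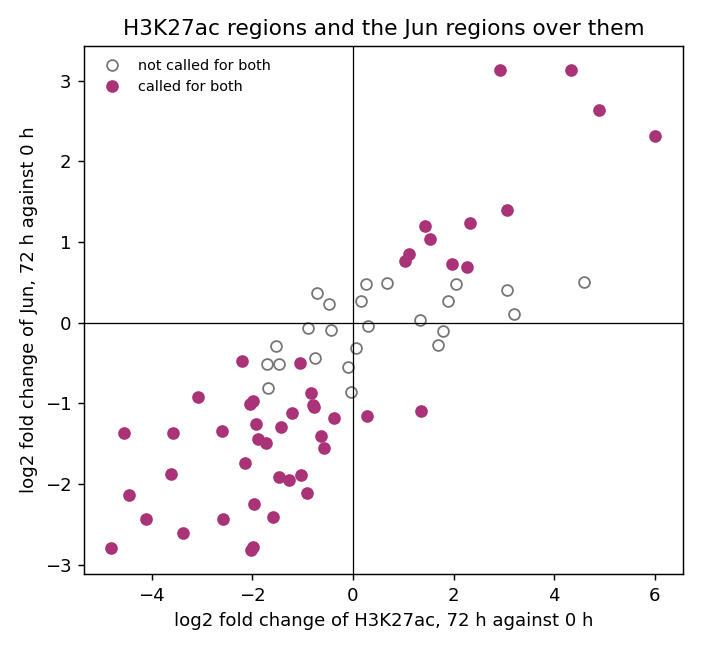
log2 fold change at 72 h against 0 h of Jun regions (vertical) against the H3K27ac regions they overlap (horizontal) in the 9 windows. Filled points were called for both antibodies, of which 34 lie in the lower left and 12 in the upper right.

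Rad21, read only at 0 and 72 h, fell at 4 of the 9 windows: GYPC, RHAG, SPTB and SLC4A1. Among all 47191 windows 13.9% were called lower and 14.4% higher. GYPC held 67.2 and 49.3 CPM at 0 h and 24.8 and 26.0 after 72 h (−1.21, SE 0.163, adjusted p = 1.06e-07), and it alone of the 4 kept its call whichever library was left out. Over the GYPC span without the 30 kb extension the value was −0.235 and not called. RHAG held 90.0 and 84.5 CPM and then 47.2 and 38.2 (−1.03, SE 0.146, adjusted p = 3.19e-07; −0.81, adjusted p = 0.0559, without the second 72 h library). SLC4A1 held 61.5 and 56.7 CPM and then 38.4 and 40.6 (−0.58), and SPTB 37.2 and 24.4 and then 20.8 and 17.6 (−0.69). The SLC4A1 call was lost without the first 0 h library (−0.32), the first 72 h library (−0.49) or the second (−0.55). SPTB lost its call in the same 3 fits (−0.13, −0.78 and −0.51).

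ANK1 (124 and 108 CPM, then 139 and 145; 0.29, adjusted p = 0.119), EPB41 (205 and 195, then 194 and 183; −0.09), KEL (39.5 and 40.1, then 27.6 and 32.2; −0.42, adjusted p = 0.0504), EPB42 (−0.30) and EPOR (−0.18) were not called. Of these only ANK1 was higher at 72 h in both libraries.

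The largest called Rad21 falls were both upstream of GYPC. The weaker region, chr2:126651114-126651406, held 44 and 33 counts at 0 h and 6 and 8 after 72 h (−2.54, SE 0.48, adjusted p = 0.000623). The strongest of the window, chr2:126644698-126645665, lies over the same stretch as the Jun region lost there. It held 216 and 115 counts at 0 h and 30 and 40 after 72 h (−2.30, SE 0.297, adjusted p = 1.32e-05). At RHAG the upstream region chr6:49645736-49647039 held 280 and 214 counts and then 144 and 92 (−1.20, and −0.98, not called, without the second 72 h library). The KEL start-site region chr7:142962113-142962956 held 99 and 77 counts and then 52 and 42 (−1.02, adjusted p = 0.00986), a call lost without the first 0 h library (−0.85), without either 72 h library (−0.95 and −0.96) and in DESeq2 (−1.02). Gains were seen inside ANK1 at chr8:41685239-41685791, with 4 and 9 counts and then 71 and 67 (3.26, or 4.18 without the second 0 h library), and in the PLEKHG3 span at chr14:64720163-64720580, with 3 and 6 counts and then 47 and 29 (2.89, or 3.70 without the second 0 h library). The second of these lies over the H3K27ac region that rose most.

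Of the 94 Rad21 regions 87 were tested, and 12 were called higher and 14 lower, against 15.4% and 7.91% of all regions (23.3% either way). By total counts 11 were higher and 18 lower, and with mitochondrial regions removed, which held 24.8% to 34.1% of the Rad21 reads, 14 were higher and 13 lower. Of all called regions 50.7% were higher by total counts and 68.3% with mitochondrial regions removed. Without 1 library at a time the number called ranged from 11 to 34. The second 72 h library gave 11 when left out and the second 0 h library 34. DESeq2 called 10, 6 higher and 4 lower, and 77.4% of its calls over all regions were higher. Where a called Rad21 region overlapped a called H3K27ac region, 7 pairs were both higher and 11 both lower, with 0 pairs opposed (over all regions the direction was shared at 96.2%).

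Few CTCF changes were called in these windows. In simulated data the CTCF region fit found 115 of 200 4-fold changes, so few calls do not show that binding was unchanged. Of 63 regions 54 were tested, and 1 was called at 6 h, 1 at 72 h and 0 from 6 to 72 h, against 2.65%, 6.79% and 2.18% of all regions. At an unadjusted p under 0.05, edgeR gave 10, 11 and 8, and DESeq2 called 1, 1 and 0. How many of all CTCF regions pass at that unadjusted p was not counted, so the 10, 11 and 8 cannot be set against a share. The call at 6 h was beyond ANK1 at chr8:41912483-41912856, with 28 and 14 counts at 0 h, 59 and 58 after 6 h and 50 and 65 after 72 h (1.77, adjusted p = 0.00482, lost without either 0 h library at 2.06 and 1.59). The call at 72 h was inside EPB41 at chr1:28893400-28894148, with 8.83 and 8.57 CPM at 0 h and 28.5 and 22.4 after 72 h (1.53, adjusted p = 0.00889). It was lost without either 0 h library (1.56 and 1.54) and without the first 72 h library (1.37).

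By window 0 of 9 were called for CTCF at 6 h (4.87% of all windows), and EPOR alone at 72 h (21.2% of all windows). The EPOR window held 54.5 and 59.3 CPM at 0 h, 41.6 and 37.9 after 6 h and 41.7 and 38.9 after 72 h (−0.50, SE 0.168, adjusted p = 0.0384). Later libraries were below those of 0 h, but the call was lost under total counts, loess offsets and DESeq2, and without any 1 of the 0 h or 72 h libraries (−0.41 to −0.56).

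**Figure D5:**
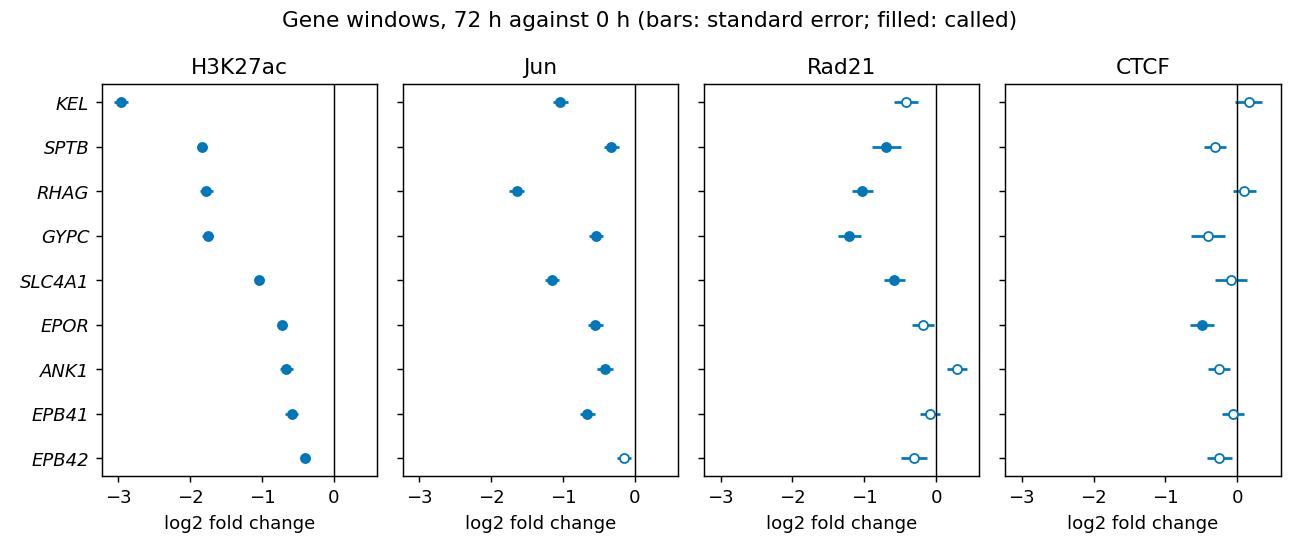
log2 fold change at 72 h against 0 h of each gene window for H3K27ac, Jun, Rad21 and CTCF, with bars of 1 standard error and filled points where called. H3K27ac is filled at 9 genes, Jun at 8, Rad21 at 4 and CTCF at 1.

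Other genes of the red cell membrane behaved unevenly. In a list of 32 such genes, all tested, H3K27ac windows at 72 h were called lower at 23 and higher at 9, with a median of −0.47, against 52.5% lower, 35.4% higher and a median of −0.30 over all windows. The largest falls were at GYPB and GYPE, glycophorin genes that share a cluster and are near-identical copies, so their reads may be split (−3.79 and −2.76). SLC14A1, the Kidd blood group urea transporter, rose most (1.26 mean CPM at 0 h, 23.2 at 72 h; 4.198), followed by CD59, a complement inhibitor (1.34), and SEMA7A, the carrier of the JMH blood group (1.01). For Jun 23 were lower and 3 higher (median −0.68), against 46.6% and 27.8% of all windows, and for Rad21 8 were lower and 5 higher (median 0.04), against 13.9% and 14.4%.

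Of 16 genes that act with the erythropoietin receptor, 13 H3K27ac windows were lower and 3 higher at 72 h (median −0.78), against 52.5% lower and 35.4% higher over all windows. PIM1 (−1.65), a kinase gene, LYN (−1.58), a Src-family kinase gene, and SOCS2 (−1.30), a signalling inhibitor gene, fell most. KIT, the stem cell factor receptor gene, rose from a mean of 0.81 to 3.34 CPM (2.02), and SOCS3 (1.28) and SH2B3 (0.61), which encode inhibitors of cytokine signalling, also rose. Jun was lower at 13 and higher at 2 (46.6% and 27.8% of all windows). Of 20 non-erythroid relatives of the 9 genes, 19 were tested for H3K27ac, and 9 were higher and 9 lower at 72 h (median −0.20). GHR, the growth hormone receptor, fell from a mean of 56.2 to 7.24 CPM (−2.95), followed by RHBG (−1.07) and SLC4A3 (−1.04), relatives of RHAG and SLC4A1. PRLR, the prolactin receptor, held a mean of 0.16 CPM at 0 h and 17.9 at 72 h, and ANK2, the second ankyrin gene, 1.35 and 12.1 (3.14). RHCG held 0.27 and 1.11. These lists describe counts and medians only.

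Over the 6 H3K27ac libraries the windows most like the mean pattern of the 9 genes were LOC100420653 and TCEAL8 (Pearson r = 0.999855 for both), PABPN1 (0.999829), IFT56 (0.999825) and ZFAND6 (0.999776). With 6 libraries in 3 pairs such values are common: 7289 of 43235 windows had r above 0.95. They are a description of a pattern that is high at 0 h and lower at both later times.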

How the data were processed

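Deposited region tables give raw read counts per region and library, with the authors' log2 fold changes, adjusted p-values and a label; coordinates are printed 1-based. The deposited narrowPeak lists, 1 per library, give peak positions, with a fold ratio, −log10 p and q values and a score set by the authors, used here only for whether a peak overlapped. Trim Galore 0.4.3, BWA 0.7.17, SAMtools 1.9, MACS2, bedtools 2.26 and deepTools 3.0.1, and the builds hg19 and hg38, are named without roles in the submitters' processing notes. Contig names and region ends match GRCh38.

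Each antibody was fitted on its whole table with edgeR 4.0.16 (R 4.3.3; filterByExpr, TMM, glmQLFit, glmQLFTest), for regions and for sums per gene window, all times together. TMM assumes most regions do not change. Alternatives were total counts, loess offsets (limma 3.58.1), DESeq2 1.42.0, filters, window widths and libraries left out. Scripts were tested on simulated data with 200 regions changed 4-fold at 72 h. At an adjusted p below 0.05, 14.3% of H3K27ac, 10.9% of Jun, 5.51% of Rad21 and 1.71% of CTCF region calls were false. The fits found 168, 147, 120 and 115 of the 200 in that order. Fewer regions were changed there than were called in the real data, so these shares may not carry over. Members and lists were chosen with earlier results of these data known. All 9 genes are named; named regions are, per gene and antibody, the one with the highest mean CPM, the one over or nearest (within 2 kb) the start, and the largest called rise and fall; regions under 10 counts are not named. In lists, the 3 largest changes either way are named, except for items not reported here. Promoters came from RefSeq (GRCh38.p14). The authors' labels were not used: of 22 H3K27ac regions here labelled upLate in the authors' deposited table, 17 have its own log2 fold change at 72 h below 0. The intervals cover counting error only.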

Additional observations from a re-analysis of the deposited data

How the results depend on the processing

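Of the 9 H3K27ac windows, 7 to 9 were called lower at 6 h and 8 or 9 at 72 h over the settings run, with 1 called higher at 6 h with loess offsets and 1 at 72 h with 100 kb. The limits are the scaling of the shallow changes and the spread of 2 libraries. Without the 30 kb extension the called H3K27ac regions numbered 39, 54 and 46 (6 against 0 h, 72 against 0 h, 72 against 6 h), and with 100 kb 110, 152 and 123, as fewer or more regions fall in the windows. For Jun regions these were 28, 36 and 14 without the extension and 88, 127 and 54 with 100 kb. DESeq2 called 33 Jun regions at 6 h and 15 from 6 to 72 h, and leaving out 1 library gave 7 to 29 for the latter. Jun windows called at 72 h numbered 4 by total counts, 5 with loess offsets and 5 in DESeq2. The cause was not tested. Counts of called regions and windows in this section are given without the share called among all regions or windows in the same setting. They show how the calls move with the processing and not whether these genes differ from the rest.

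CTCF regions called were 2 by total counts, 0 without the extension and 0 to 2 with 1 library left out at 6 h. At 72 h they were 5 when only the compared times were fitted, 6 with 100 kb and 0 to 5 with 1 library left out. From 6 to 72 h they were 5 by total counts, 1 with loess offsets, 1 with 100 kb and 0 to 4 with 1 library left out. CTCF windows called at 6 h were 1 by total counts and 0 to 1 with 1 library left out. At 72 h they were 0 by total counts, with loess offsets, in DESeq2, with no filter and where regions needed a mean count of 20, 2 with 100 kb, and 0 to 1 with 1 library left out. Rad21 regions called were 10 in DESeq2, 11 without the extension and 11 to 34 with 1 library left out, and Rad21 windows 2 in DESeq2 and 1 to 4 with 1 library left out.

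Signs turned as follows. By total counts these were H3K27ac at EPB41 at 6 h (0.0344), Jun at ANK1 (0.20 at 6 h, 0.14 at 72 h), SPTB (0.24), EPB42 (0.41) and GYPC (0.0143) at 72 h, EPOR (0.18 at 6 h, 0.0043 at 72 h), and the strongest EPB41 H3K27ac region at 72 h (0.13). With loess offsets they were H3K27ac at ANK1 (0.0764) and EPB41 (0.18) at 6 h and EPB42 at 72 h (0.0674), Jun at ANK1 (0.13 and 0.0154), SPTB (0.0896) and EPB42 (0.25) at 72 h and EPOR at 6 h (0.11), the strongest EPB41 H3K27ac region (0.25 and 0.67) and the farther TGM5 region at 6 h (−0.0205). In DESeq2 they were Jun at ANK1 (0.10) and EPOR (0.0828) at 6 h and EPB42 at 72 h (0.10). With 100 kb they were H3K27ac at KEL (0.54), Jun at SPTB (0.0905) and Rad21 at EPOR (0.092), and without the extension Jun at EPB41 (0.14) and EPOR (0.70) at 6 h and EPOR at 72 h (0.11). With 1 library left out, values ranged across 0 for Jun at 6 h at ANK1 (−0.2264 to 0.1188) and EPOR (−0.1473 to 0.0482), for Rad21 at EPB41 (−0.099 to 0.15), EPB42 (−0.4057 to 0.0538) and EPOR (−0.265 to 0.15), and for H3K27ac at the farther TGM5 region at 6 h (−0.1838 to 0.8945).

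The replicate block gave 68, 90 and 71 H3K27ac regions, 50, 71 and 26 Jun regions, 1, 1 and 1 CTCF regions and 31 Rad21 regions, and 9 and 9 H3K27ac, 6 and 8 Jun, 1 and 1 CTCF and 6 Rad21 windows. Whether replicate numbers pair the libraries was not settled. The correlation of deviations between libraries of the same number was between −0.022 and 0.124, and a low value cannot exclude pairing.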
